A study of Mus musculus with 8 samples.

Results

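A group of 9 genes of the endoplasmic reticulum (ER) stress response were followed across 8 RNA sequencing libraries of mouse prefrontal cortex. They were chosen by symbol, all 9 of 9 being present among the 23393 gene symbols counted, and all 9 were among the 17415 genes tested: Hspa5, Hsp90b1, Pdia4, Pdia6, Calr, Sdf2l1, Dnajb9, Herpud1 and Xbp1. Most are chaperones or folding enzymes of the ER lumen, while Herpud1 acts in degradation and Xbp1 encodes a transcription factor. Libraries came from C57BL6/J mice aged 6 to 8 weeks that had received an AAV9 virus, in 4 groups of 2. The Adnp set holds 2 libraries titled as Adnp knockdown by short hairpin RNA (shAdnp here) and 2 controls given an AAV9 virus with GFP. The Pogz set holds 2 libraries titled as Pogz knockdown (shPogz) and 2 GFP controls of its own. The treatment label of both hairpin groups names ASH1L instead, so groups follow the titles, and the virus is common to hairpin and control mice. The labels give neither the promoter that drives the hairpin nor the cells the virus entered, and the RNA is that of whole tissue, so fewer cells of a type and less RNA per cell cannot be told apart.

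Proteins that enter the ER are folded there by chaperones, helped by enzymes that form disulfide bonds and by lectins that bind sugar chains. When unfolded protein accumulates, the sensors IRE1, PERK and ATF6 set off the unfolded protein response. ATF6 and spliced XBP1 then raise transcription of ER chaperones through a promoter sequence called the ER stress element, while PERK acts through ATF4 on a largely separate group of genes. Neurons and myelin-forming oligodendrocytes both make large amounts of membrane protein that passes through the ER. Splicing of Xbp1 mRNA is not visible in counts per gene, which add up its forms.

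Because ATF6 and spliced XBP1 act on ER chaperone genes through this element, the promoter windows of RefSeq on GRCm38.p6 were searched for it. Each of the 9 genes had a window, which runs from 250 bases before the start site to 50 bases after it. The letters searched, each on both strands, were CCAAT and CCACG with any 9 bases between them (ER stress element), ATTGG and CCACG with any 1 base between them (its second form), TGACGTGG (a UPR element), TTGCATCA (an element bound by ATF4) and CCACG alone, which both forms of the ER stress element contain. The ER stress element was found in the windows of 4 of the 9 genes, Hspa5, Hsp90b1, Pdia6 and Calr, against 0.119% of all 32851 windows of the same length. The second form was found in 1 of the 9, Herpud1, against 0.0365% of all windows. The windows of Pdia4, Xbp1, Sdf2l1 and Dnajb9 held neither form. Herpud1 also held TTGCATCA (0.895% of all windows), and no gene of the 9 held TGACGTGG (0.676%). The short CCACG occurred in 8 of the 9 windows and in 32.8% of all windows. The matches follow with the fixed letters of each element in capitals, 5′ to 3′ on the strand of the gene. In Hsp90b1, which holds 2 matches, the second is on the opposite strand, as is the match in Calr, so those read CGTGG first.
Hspa5, chr2:34772020-34772048, plus strand: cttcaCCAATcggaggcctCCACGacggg
Hsp90b1, chr10:86705518-86705671, minus strand: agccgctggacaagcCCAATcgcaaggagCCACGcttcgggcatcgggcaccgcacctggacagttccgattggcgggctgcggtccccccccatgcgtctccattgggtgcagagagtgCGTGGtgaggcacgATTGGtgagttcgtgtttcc
Pdia6, chr12:17266476-17266524, plus strand: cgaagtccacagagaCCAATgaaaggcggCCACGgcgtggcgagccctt
Calr, chr8:84847060-84847108, minus strand: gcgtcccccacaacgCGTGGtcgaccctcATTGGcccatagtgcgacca
Herpud1, chr8:94386362-94386402, plus strand: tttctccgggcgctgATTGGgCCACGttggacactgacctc
The element of Hspa5 lies 65 to 47 bases before the RefSeq start site, inside the longer gene span of GENCODE. That of Pdia6 lies 98 to 80 bases before the start site, that of Calr 162 to 144 bases before it, and those of Hsp90b1 lie 212 to 194 and 107 to 89 bases before it. A match describes letters only, and no binding was measured in these data. The element was searched because it acts on ER chaperone genes, so its share among the 9 is no independent result.

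Depth was 27501722 to 69002749 counts per library, and the 9 genes together took 0.150% to 0.238% of them. Levels are given as CPM, read counts scaled by TMM to a common library size. Neither targeted transcript passed edgeR's test in its own set (adjusted p = 0.768 for Adnp in shAdnp and 0.667 for Pogz in shPogz), so group names are those of the titles. Markers of cortical excitatory neurons summed to 2049 to 3706 CPM, with none of the 7 markers at 0 in all libraries. The labels call the libraries biological duplicates, whereas the design text counts 3 knockdown and 2 control mice, and the column header of 1 of the shPogz libraries carries the number 3. Which animal each library came from is thus not settled, and p-values measure the spread between these libraries. The ribosomal RNA gene Rn45s took 7.62% of counts in shAdnp replicate 1 and 0.134% to 0.740% in the other 7 libraries.

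Per kilobase of the longest coding transcript in GENCODE M21, the genes differed widely in level. Calr, the calcium-binding lectin chaperone calreticulin, had the highest median over the 8 libraries, 188 CPM per kilobase, followed by Hsp90b1 (165), Hspa5 (104), Pdia6 (61.7), Xbp1 (49.8), Pdia4 (37.1), Herpud1 (31.8), Dnajb9 (12.7) and Sdf2l1 (12.4). Dnajb9 and Sdf2l1 stood at nearly the same level, and their ranges over libraries overlapped (9.91 to 14.1 and 9.94 to 24.6 CPM per kilobase). The ranges of Calr (174 to 235) and Hsp90b1 (148 to 205) overlapped as well. Spread between libraries was unequal: the highest library was 2.47 times the lowest for Sdf2l1, 1.80 times for Hspa5 and 1.76 times for Pdia4, and only 1.26 times for Herpud1.

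Members of the group moved together from library to library. The correlation between 2 members over the 8 libraries, on log2 CPM, had a median of 0.84 over the 36 pairs. It ran from 0.50 (Herpud1 with Dnajb9) to 0.98 (Hspa5 with Hsp90b1). This is a description, since the genes of a library share its depth and tissue composition, and both differ between libraries. The summed level of the 9 genes was 1654 and 1934 CPM in the Adnp-set GFP controls, 1992 and 1503 CPM in shAdnp, 1616 and 1526 CPM for GFP in the Pogz set, and 1737 and 2193 CPM in shPogz (replicates 1 and 2). The shPogz replicate 2 library was the highest of the 8 for 7 of the 9 genes, against 22.7% of all tested genes, and shAdnp replicate 2 the lowest for 6 of the 9, against 13.8%. In 3 of the 4 groups the replicates stood apart in a common direction. All 9 genes were higher in shAdnp replicate 1 than in replicate 2 (49.6% of all genes), and all 9 were higher in shPogz replicate 2 than in replicate 1 (48.9%). The same held for GFP replicate 2 over replicate 1 in the Adnp set (57.4%). The Pogz-set controls were closest to each other, with a median log2 gap of -0.06 (replicate 2 minus replicate 1) against -0.36 in shAdnp, 0.29 in shPogz and 0.18 in the Adnp-set controls.

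**Figure D1:**
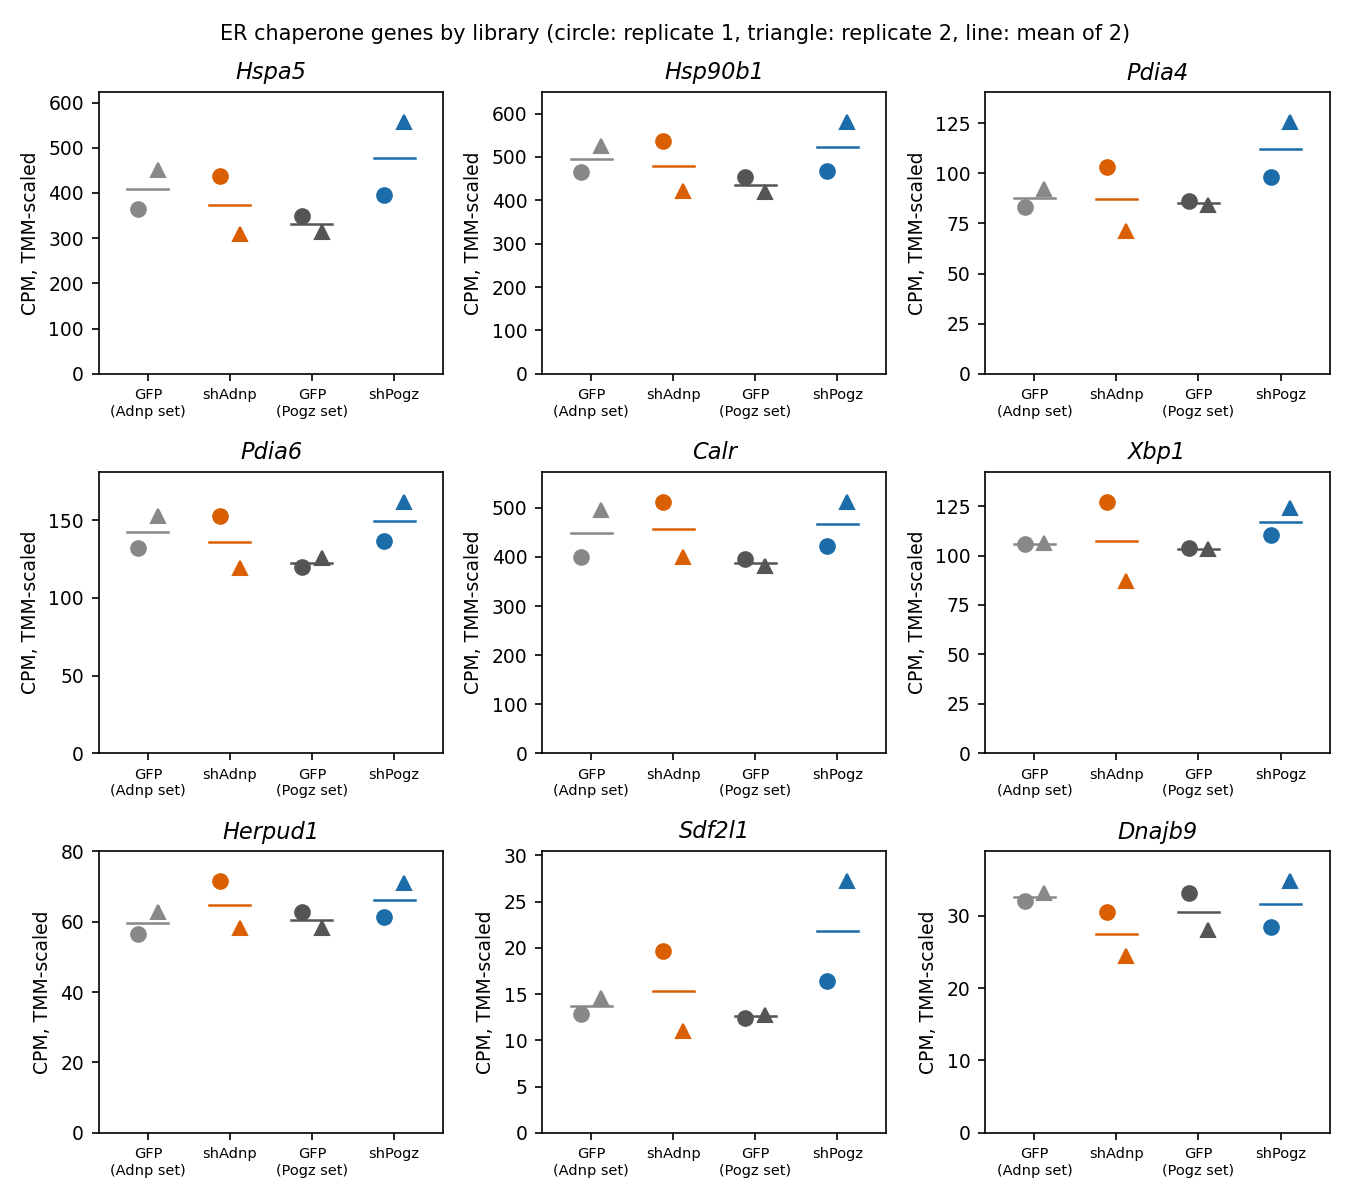
Level of each ER chaperone gene in every library, in TMM-scaled CPM on the vertical axis, with the 4 groups on the horizontal axis, circles for replicate 1, triangles for replicate 2 and a line at the mean of the 2. The shPogz replicate 2 triangle is the highest point for 7 of the 9 genes, and the shAdnp replicates lie on either side of their controls for most genes.

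In the Pogz set the comparison asks which genes respond to the Pogz virus. All 9 ER genes had a log2 fold change above 0 in shPogz against its GFP controls, where 46.4% of all tested genes did, with a median of 0.27 against -0.02 over all genes. None passed edgeR's quasi-likelihood test adjusted over all genes (0 of 9, with 0% of all genes called). Nor did any of the 9 pass with DESeq2, which called 101 of the 17415 genes, or with limma-voom, which called 0. At an unadjusted p under 0.05 there were 2 of 9, Hspa5 and Sdf2l1, against 4.05% of all genes in the higher and 2.65% in the lower direction. DESeq2 gave 3 of 9 at that level (5.36% of all genes in the higher direction) and limma-voom 1 of 9 (2.96%). The shPogz libraries lay wholly above both Pogz-set controls for 7 of the 9 genes, against 19.0% of all genes, the exceptions being Herpud1 and Dnajb9.

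Hspa5 (chromosome 2, 34771970 to 34777547, GRCm38) encodes BiP, the ER member of the Hsp70 family and the binding partner that holds the stress sensors inactive. Pogz-set GFP libraries gave 349 and 314 CPM, and the shPogz libraries 396 and 556 CPM. Both shPogz libraries lay above the controls, replicate 2 by far the most. The difference was 1.44-fold (log2 0.52, SE 0.21, 95% interval 0.04 to 1.01; edgeR adjusted p = 0.667). Sdf2l1 (chromosome 16, 17130138 to 17132383), a cofactor of BiP and its J proteins, had 12.4 and 12.8 CPM under GFP, compared with 16.5 and 27.2 CPM under the Pogz hairpin. It had the largest log2 fold change of the 9, 0.79 (SE 0.31, interval 0.07 to 1.51; edgeR adjusted p = 0.667), a 1.73-fold difference, and again replicate 2 was the higher.

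Hsp90b1 (chromosome 10, 86690209 to 86705509) encodes GRP94, the Hsp90 of the ER. GFP libraries gave 453 and 419 CPM and shPogz libraries 468 and 580 CPM, a log2 fold change of 0.26 (SE 0.15). The first shPogz library was only slightly above the higher control. Exons of Hsp90b1 share 415 bases with a pseudogene on the other strand, 1810014B01Rik. On its own strand they share 133 bases with Gm25745 and 84 bases with Gm15344. The strand setting of the counting is not given in the sources used here. The counts of Hsp90b1 are uncertain to the extent of these overlaps.

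Among the protein disulfide isomerases, Pdia4 (chromosome 6, 47796141 to 47813430) had 85.9 and 84.0 CPM under GFP against 98.3 and 125 CPM under the hairpin (log2 fold change 0.40, SE 0.18). Pdia6 (chromosome 12, 17266545 to 17284770) stood at 120 and 125 CPM against 136 and 162 CPM (0.28, SE 0.14). Its exons share 50 bases with those of Atp6v1c2 on the other strand. For both enzymes the controls were close together and the shPogz libraries lay above them. Calr (chromosome 8, 84841850 to 84846934) had GFP levels of 396 and 381 CPM and hairpin levels of 422 and 513 CPM, a log2 fold change of 0.27 (SE 0.16).

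Xbp1 (chromosome 11, 5520659 to 5525893), the factor that IRE1 activates by splicing, had 104 and 103 CPM under GFP and 111 and 124 CPM under the hairpin (log2 fold change 0.18, SE 0.16). These levels did not overlap either. Herpud1 (chromosome 8, 94386438 to 94395377), a membrane protein of ER-associated degradation, did overlap between groups, with 62.7 and 58.1 CPM under GFP against 61.2 and 71.0 CPM (0.13, SE 0.13). Dnajb9 (chromosome 12, 44205559 to 44210326), the J protein ERdj4 and a target of spliced XBP1, was at 33.1 and 28.1 CPM against 28.4 and 34.8 CPM, with a log2 fold change of 0.05 (SE 0.15, interval -0.29 to 0.39).

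**Figure D2:**
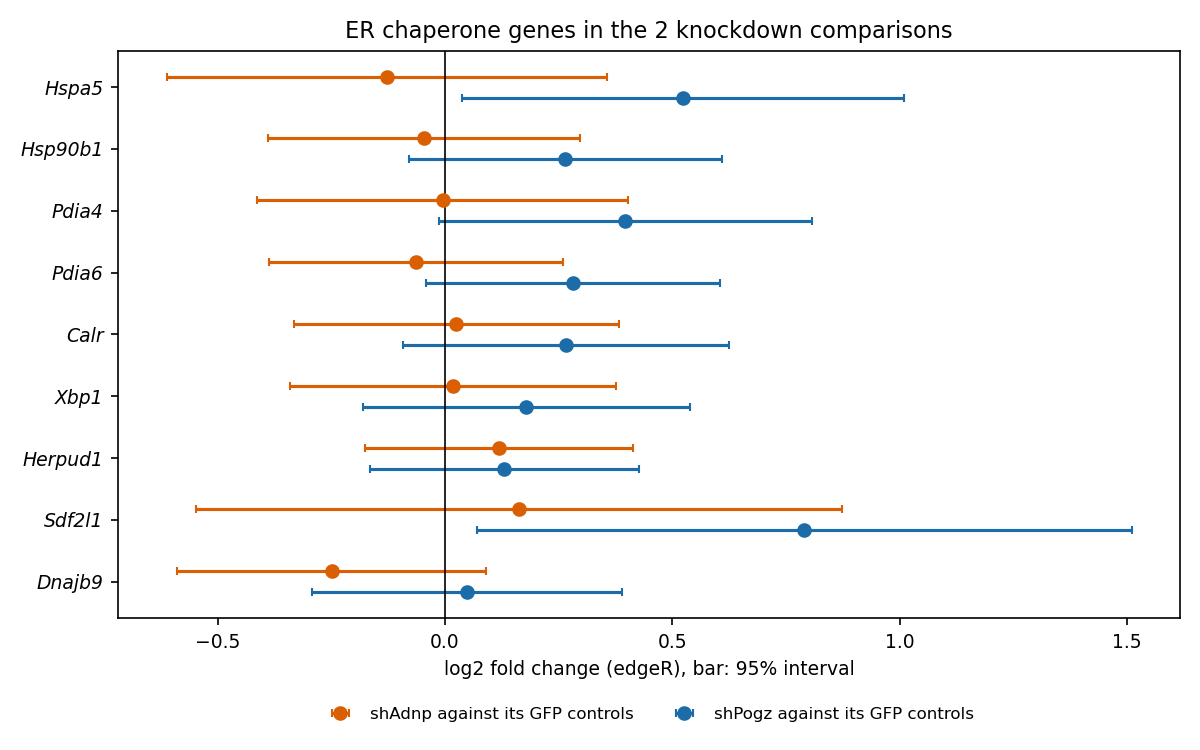
Log2 fold change of each gene on the horizontal axis, with its 95% interval from the edgeR model, for shAdnp and for shPogz each against its own GFP controls. All 9 shPogz points lie to the right of 0, with the intervals of Hspa5 and Sdf2l1 clear of 0 before any adjustment, while the shAdnp points lie between -0.25 and 0.16.

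The shPogz difference was larger in replicate 2. Without that library the median log2 fold change was 0.12, with 8 of the 9 genes above 0. Hspa5 was then at 0.26 and Sdf2l1 at 0.38, while Dnajb9 was at -0.10. Without replicate 1 the median was 0.44, with 9 of the 9 above 0. Without 1 of the Pogz-set controls the medians were 0.32 (replicate 1 left out) and 0.28 (replicate 2 left out). In each of these fits the remaining library of the group is assumed to vary like the other groups. Set against all 4 GFP controls, shPogz replicate 2 was above every control for 9 of the 9 genes (28.3% of all genes) and shPogz replicate 1 for 3 of the 9 (16.3%), namely Pdia4, Xbp1 and Sdf2l1.

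For the Adnp virus the same question gave no common direction. In shAdnp against its GFP controls 4 of the 9 genes were above 0 (47.7% of all genes), with a median of -0.0053 against -0.0124 over all genes. None of the 9 passed edgeR, DESeq2 or limma-voom adjusted over all genes. Of all genes, edgeR called 0%, DESeq2 called 417 of the 17415 and limma-voom called 0. By edgeR 0 of 9 had an unadjusted p under 0.05, where 6.67% of all genes did so in the higher and 1.69% in the lower direction. For Hspa5 the Adnp-set GFP libraries gave 366 and 450 CPM and the shAdnp libraries 438 and 309 CPM, so that the hairpin libraries lay on both sides of the lower control. The log2 fold change was -0.13 (SE 0.21, interval -0.61 to 0.36). Sdf2l1 was at 12.8 and 14.6 CPM against 19.6 and 11.0 CPM (0.16, SE 0.31, interval -0.55 to 0.87). The interval of Sdf2l1 reached above its value in the Pogz set, and that of Hspa5 did not. This leaves out the error of the Pogz-set value. For Hspa5 the interval of the difference between the 2 responses held 0 (-0.04 to 1.34).

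Hsp90b1 had 465 and 526 CPM under GFP against 538 and 422 CPM under the Adnp hairpin, and Calr stood at 400 and 496 against 512 and 401 CPM. Pdia6 was at 132 and 152 against 153 and 119 CPM, and Pdia4 at 83.2 and 91.9 against 103 and 71.2 CPM. In each of these 4 genes shAdnp replicate 1 was above both controls and replicate 2 below at least the higher control. Pdia4 had a log2 fold change of -0.01, whose sign turned under RLE scaling (0.00086) and upper quartile scaling (0.01). Xbp1 had 106 CPM in both GFP libraries against 127 and 87.2 CPM, so that controls at one level were set against hairpin libraries far to either side. Herpud1 was at 56.6 and 62.8 against 71.5 and 58.2 CPM.

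Dnajb9 alone of the 9 did not overlap in the Adnp set. GFP libraries gave 32.0 and 33.2 CPM and shAdnp libraries 30.5 and 24.4 CPM (log2 fold change -0.25, SE 0.15; edgeR adjusted p = 0.731), 1 of 9 on that side against 21.0% of all genes, with 0 of 9 wholly above (20.4%). Which hairpin library was kept decided the direction of the group: without shAdnp replicate 1 all 9 genes were below 0 with a median of -0.27, and without replicate 2, 8 of the 9 were above 0 with a median of 0.20. Set against all 4 GFP controls, shAdnp replicate 1 was above every control for 7 of the 9 genes (20.8% of all genes) and below every control for 0 (23.1%). Replicate 2 was above every control for 0 (23.0%) and below every control for 6 (22.4%).

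The difference between the responses, shPogz minus shAdnp, was above 0 for all 9 genes (46.9% of all genes), with a median of 0.31. It passed for 0 of 9 by edgeR, DESeq2 or limma-voom. Of all genes, edgeR called 0%, DESeq2 called 2 of the 17415 and limma-voom called 0. By edgeR 0 of 9 had an unadjusted p under 0.05 (1.10% of all genes in the higher and 2.41% in the lower direction), and DESeq2 gave 1 (1.05% higher). For Hspa5 the difference was 0.65 (SE 0.30, interval -0.04 to 1.34) and for Sdf2l1 0.63 (SE 0.43, interval -0.38 to 1.64). A difference between the viruses was therefore not shown for any of the 9. In the model for both viruses together, with a term for the set, 8 of the 9 genes were above 0 (44.7% of all genes). Their median was 0.12, and 0 of 9 passed by edgeR (0% of all genes), DESeq2 (711 of the 17415 genes called) or limma-voom (0 called). Sdf2l1 had the largest value there, 0.47 (SE 0.23), and Dnajb9 the only negative one, -0.10 (SE 0.11). At an unadjusted p under 0.05 there were 0 by edgeR (8.84% of all genes in the higher and 3.62% in the lower direction) and 1 by DESeq2 (9.74% higher). Without shAdnp replicate 2 there were 8 by edgeR, all higher, where 9.19% of all genes in that fit were.

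The controls of both sets were also set against each other. With the Pogz-set GFP libraries set against those of the Adnp set, 1 of the 9 genes was above 0 (51.8% of all genes), with a median of -0.12 against 0.01 over all genes. Pogz-set controls lay wholly below the Adnp-set controls for 6 of the 9 (22.3% of all genes) and wholly above for 0 (21.2%). None passed edgeR, DESeq2 or limma-voom (0 of 9, with 0.00574% of all genes called by edgeR and more by DESeq2). By edgeR 0 had an unadjusted p under 0.05 (4.65% of all genes in the higher and 2.70% in the lower direction). Hspa5 showed the largest gap, -0.30 (SE 0.21). This comparison shares the Pogz-set controls with the shPogz comparison, and the 6 genes were Hspa5, Hsp90b1, Pdia6, Calr, Xbp1 and Sdf2l1. Ranked by group mean, the shPogz group was highest for 8 of the 9 genes (27.9% of all genes) and the Pogz-set controls lowest for 7 (17.8%).

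Levels of oligodendrocyte markers moved with these genes from library to library, and those of other cell types did not all do so. The 8 oligodendrocyte markers, among them the myelin gene Mbp, summed to 2601 and 3884 CPM in the Adnp-set controls, 4204 and 2047 CPM in shAdnp, 2615 and 2956 CPM in the Pogz-set controls and 3016 and 4430 CPM in shPogz. Their 4 highest libraries were also the 4 highest for the ER genes and in the same order, from shPogz replicate 2 through shAdnp replicate 1 and Adnp-set GFP replicate 2 to shPogz replicate 1, and shAdnp replicate 2 was the lowest for both. In shPogz 8 of the 8 markers were above 0 (46.4% of all genes), with a median of 0.45. In shAdnp 3 of 8 were (47.7%), with a median of -0.03, and 0 passed in either. None of the 8 markers was at 0 in all libraries. Excitatory neuron markers took the opposite ends, with the highest sum in shAdnp replicate 2 (3706 CPM) and the lowest in shPogz replicate 2 (2049 CPM). All 7 markers of striatal projection neurons (medium spiny neurons) were above 0 in shPogz (46.4% of all genes), with a median of 0.62 and 0 passing edgeR. Of the 7, 3 were higher at an unadjusted p under 0.05 (4.05% of all genes) and 6 lay wholly above the controls (19.0%). Their sum was 333 CPM in shPogz replicate 2 and 171 to 219 CPM in the other 7 libraries. In shAdnp 4 of the 7 were above 0 (47.7% of all genes). The part of cell composition in the ER gene values was not tested.

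The 12 interferon-stimulated genes were another group that set shPogz replicate 2 apart, at 2328 CPM against 756 CPM in replicate 1 and 81.2 to 467 CPM in the other 6 libraries. In shAdnp replicate 2, where 6 of the ER genes were at their lowest, this sum was 467 CPM, the third highest. Microglial markers were highest in shAdnp replicate 1 (2056 CPM) and shPogz replicate 2 (2028 CPM), against 555 to 1322 CPM in the other libraries. The 1322 CPM was in shAdnp replicate 2, whose GFP controls had 555 and 772 CPM. In shAdnp all 12 markers lay wholly above the controls (20.4% of all genes), and all 12 were higher at an unadjusted p under 0.05 (6.67%). In shPogz 10 lay wholly above (19.0%), and 0 were at that p (4.05% higher). None passed edgeR adjusted over all genes. Markers of blood leukocytes and plasma cells, the latter rich in XBP1, summed to 14.3 to 249 CPM, highest in shPogz replicate 2. Of the 15 markers, 9 were above 0 in shPogz and 6 below. In that comparison 3 lay wholly above the controls (19.0% of all genes) and 4 wholly below (21.3%). Xbp1 itself was highest in shAdnp replicate 1, where the leukocyte and plasma cell sum was 66.2 CPM. The part of these in the result was not tested.

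**Figure D3:**
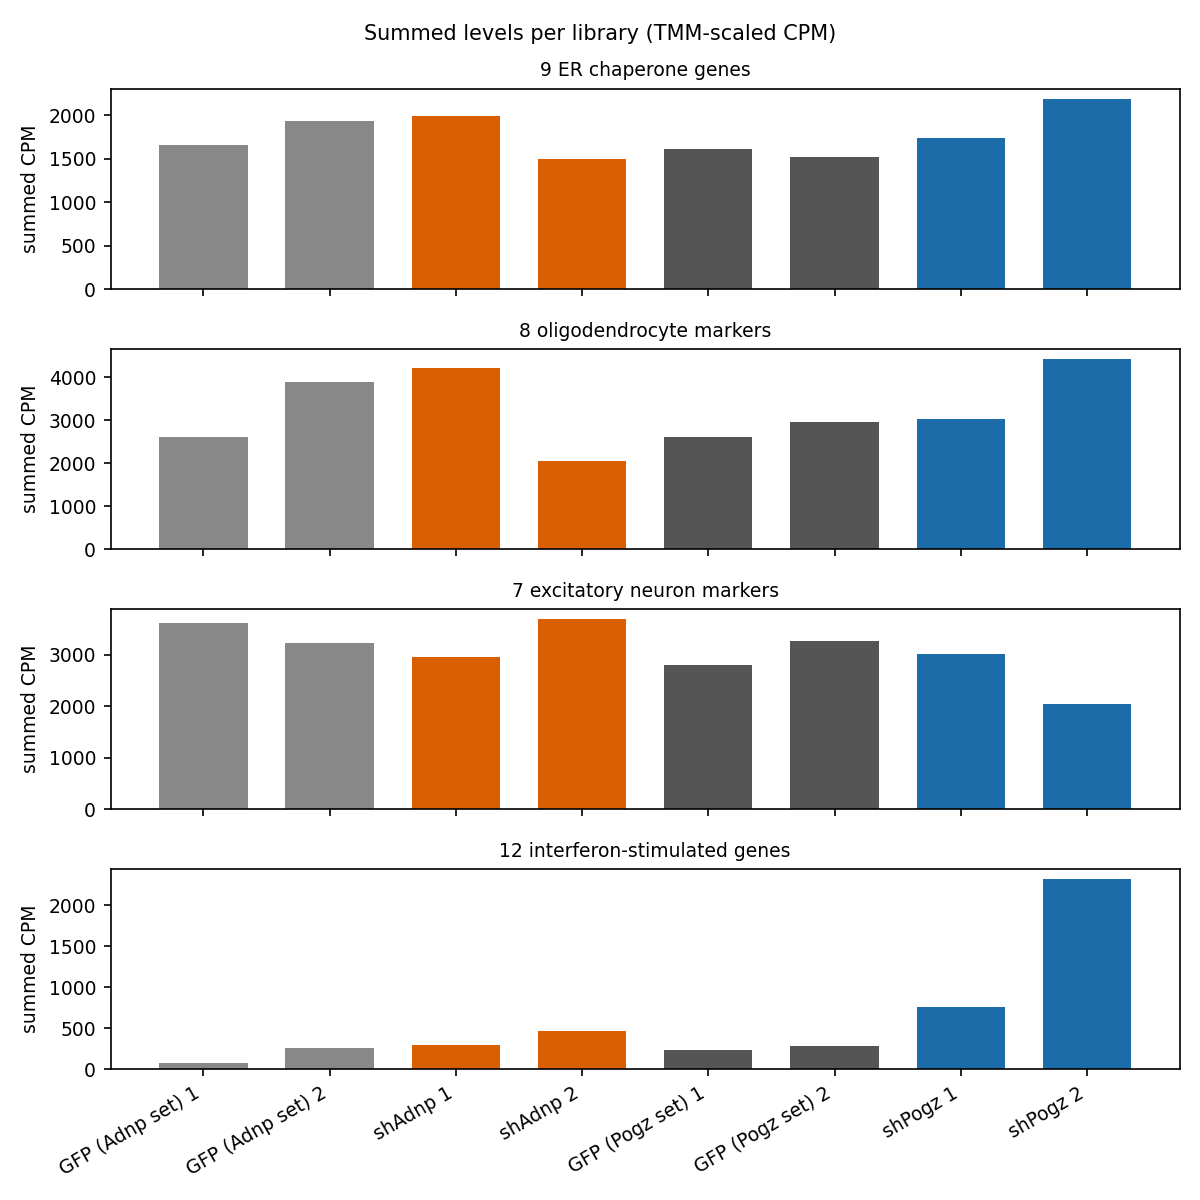
Summed TMM-scaled CPM per library on the vertical axis for the 9 ER chaperone genes, 8 oligodendrocyte markers, 7 excitatory neuron markers and 12 interferon-stimulated genes, 1 bar per library and 1 colour per group. The ER genes and the oligodendrocyte markers share their 4 highest libraries and their lowest, while the interferon-stimulated genes stand out in shPogz replicate 2 at 2328 CPM.

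The genes whose pattern over the 8 libraries was most like the mean of the 9, among 11938 others with a mean of at least 5 CPM, were Prr18 (Pearson r = 0.99), Gjc3 (0.99), Ero1lb (0.98), Tac1 (0.98) and Copb1 (0.98), as a description with no test. Gjc3 encodes a connexin of oligodendrocytes, and Ero1lb an oxidase that passes disulfide bonds to the isomerases of the ER. Copb1 is a coat subunit of vesicles that return proteins from the Golgi to the ER, and Tac1 the precursor of substance P, which striatal neurons also make. The gene Gjc3 had 28.5 and 33.3 CPM under GFP against 38.4 and 21.9 CPM under the Adnp hairpin, and 28.9 and 26.6 CPM under GFP against 29.9 and 49.6 CPM under the Pogz hairpin. For Hspa5 alone the closest were Esd (0.99), Hspa9 (0.98), Gtpbp4 (0.98), Rbm22 (0.98) and Golga5 (0.97). Hspa9 is the Hsp70 of mitochondria, and it ran from 253 CPM in shAdnp replicate 2 to 322 CPM in shPogz replicate 2.

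Other genes of the ER and of its stress response were read in the same fits, and 0 of them passed edgeR in either knockdown comparison. Of all tested genes, 46.4% were above 0 in shPogz and 47.7% in shAdnp. Of 21 further ER chaperones and folding enzymes, 16 were above 0 in shPogz (median 0.14) and 9 in shAdnp (median -0.03). In shPogz 2 of the 21 had an unadjusted p under 0.05, both higher (4.05% of all genes). One was Manf, a secreted ER stress factor (38.5 and 43.2 against 49.4 and 66.7 CPM, a log2 fold change of 0.51, SE 0.18). The other was Pdia3, the isomerase that works with calreticulin (144 and 156 against 163 and 231 CPM, 0.39, SE 0.17). The Adnp-set controls had 46.4 and 51.7 CPM for Manf and 165 and 175 CPM for Pdia3. In shAdnp 0 of the 21 had an unadjusted p under 0.05 (6.67% of all genes higher, 1.69% lower). Levels of P4hb there were 119 and 137 CPM under GFP and 166 and 135 CPM under the hairpin.

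Degradation genes gave little difference in shPogz, with 11 of 17 above 0 and a median of 0.08. There, 0 had an unadjusted p under 0.05 (4.05% of all genes higher, 2.65% lower). In shAdnp 12 of 17 were above 0 (median 0.05), and 2 had an unadjusted p under 0.05, both higher (6.67% of all genes). They were Edem1 (29.5 and 30.04 against 46.8 and 38.2 CPM, 0.51, SE 0.16) and Edem2 (17.4 and 16.0 against 22.6 and 20.2 CPM, 0.36, SE 0.13). Both encode lectins that direct misfolded glycoproteins to degradation. In both genes each hairpin library lay above both Adnp-set controls, 2 of the 17 against 20.4% of all genes. The Pogz-set controls had 38.6 and 47.3 CPM for Edem1 and 20.4 and 20.9 CPM for Edem2. Their levels thus overlapped those of the shAdnp libraries.

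Sensors and transcription factors had medians of 0.03 in shPogz (10 of 15 above 0) and 0.05 in shAdnp (9 of 15). In shPogz 2 of the 15 were higher at an unadjusted p under 0.05 (4.05% of all genes). Atf4, the PERK-arm factor, had 95.2 and 97.4 CPM under GFP and 119 and 177 CPM in shPogz (0.62, SE 0.20). Ppp1r15b, a regulatory subunit of the phosphatase that reverses PERK signalling, had 68.6 and 72.1 against 78.4 and 99.4 CPM (0.34, SE 0.13). The Adnp-set controls were higher, at 118 and 141 CPM for Atf4 and 75.7 and 79.9 CPM for Ppp1r15b. Of the shPogz libraries, only replicate 2 lay above all 4 GFP controls for both genes. The shAdnp replicate 1 library did so too, at 162 CPM for Atf4 and 86.9 CPM for Ppp1r15b. The shAdnp replicate 2 library did so for Ppp1r15b (80.4 CPM) but not for Atf4 (128 CPM). In shAdnp 1 of the 15, Atf6b, was higher at an unadjusted p under 0.05, a share near the 6.67% of all genes. It had 32.6 and 32.0 against 36.6 and 42.5 CPM (0.29, SE 0.11).

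Among the ATF4 targets 17 of 18 were above 0 in shPogz (median 0.40) and 16 of 18 in shAdnp (median 0.25). At an unadjusted p under 0.05, 10 were higher in shPogz (4.05% of all genes) and 6 in shAdnp (6.67%). Mthfd2, a mitochondrial folate enzyme, had 7.50 and 8.00 CPM under GFP and 12.6 and 32.0 CPM in shPogz, and Nupr1, a stress-induced nuclear protein, at 5.76 and 7.59 against 20.2 and 15.7 CPM in shAdnp. The heat shock chaperones of the cytosol and mitochondria had medians of 0.11 in shPogz (9 of 15 above 0) and -0.08 in shAdnp (5 of 15). At an unadjusted p under 0.05, 2 of the 15 were higher in shPogz (4.05% of all genes). In shAdnp 0 were at that level (6.67% of all genes higher, 1.69% lower). Among these chaperones Hspe1, the mitochondrial partner of Hsp60, had 24.0 and 28.5 CPM under GFP and 31.6 and 40.0 CPM in shPogz (0.44, SE 0.18). Its Adnp-set controls had 27.1 and 32.7 CPM. Genes of the ER calcium store had medians of -0.04 in shPogz (4 of 10 above 0) and -0.12 in shAdnp (3 of 10). In shPogz 0 had an unadjusted p under 0.05 (4.05% of all genes higher, 2.65% lower). In shAdnp 0 were higher and 1 of the 10 lower at that level (6.67% and 1.69% of all genes). It was the calcium release channel Ryr3, with 95.1 and 86.2 CPM under GFP and 69.8 and 69.5 CPM in shAdnp (-0.38, SE 0.10).

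**Figure D4:**
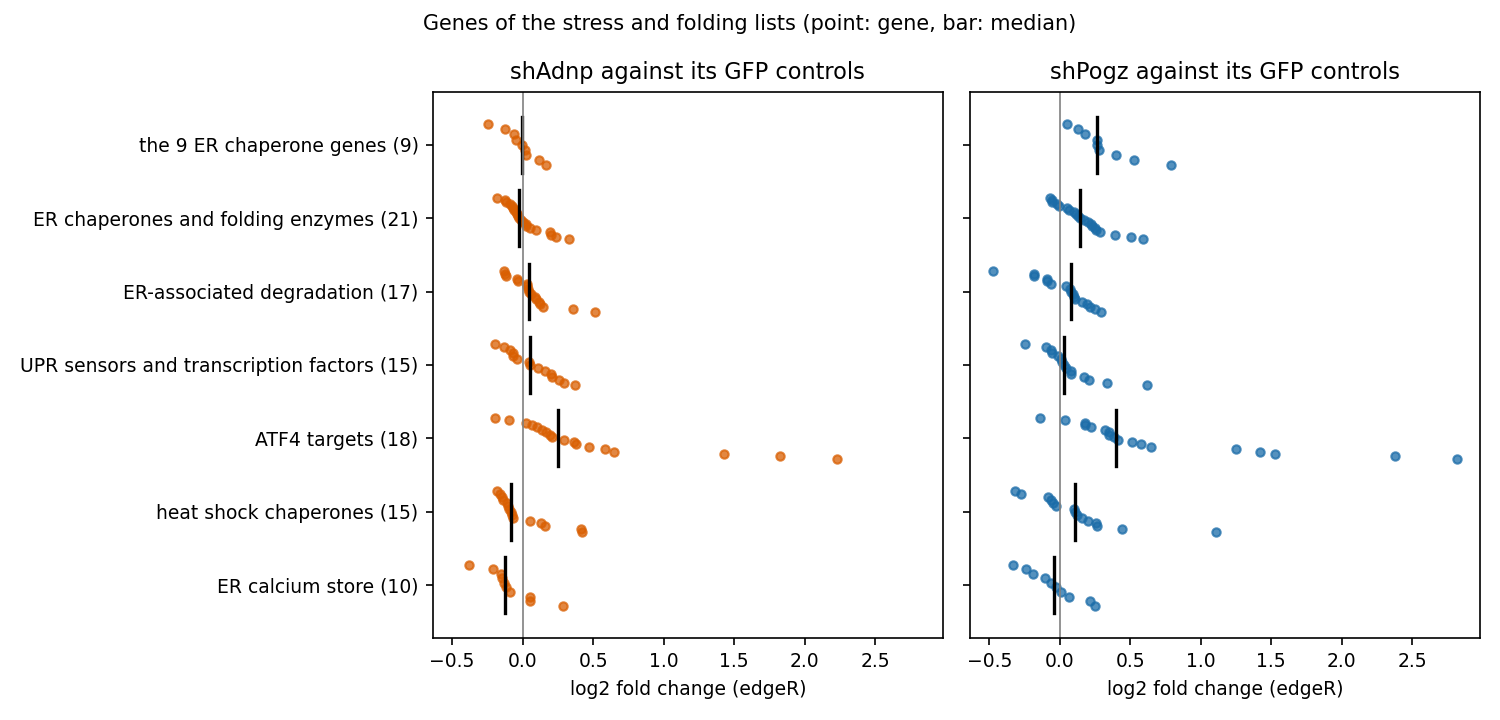
Log2 fold changes of single genes on the horizontal axis for the 9 ER chaperone genes and 6 related lists, for shAdnp and shPogz each against its own GFP controls, with the number of genes in parentheses and a bar at each median. The median of the 9 genes is -0.01 in shAdnp and 0.27 in shPogz, and that of the ATF4 targets is 0.25 and 0.40.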

How the data were processed

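The files deposited hold unnormalised whole-number counts for each symbol. STAR, featureCounts, DESeq2 and the mm10 build appear in the submitters' processing notes, while Cutadapt and TopHat2 are named per the labels' protocols. For tool versions and strand setting, the answer is not given in the sources used here. In each library 25 date-like and 2 blank identifiers (0.306% to 0.337% of counts for the former) entered neither library sizes nor tests.

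Tests used edgeR 4.0.16 under R 4.3.3: filterByExpr by group (minimum count 10), TMM scaling and a robust quasi-likelihood fit of 17415 genes in all 8 libraries, with 1 mean per group (4 residual degrees of freedom), or set and knockdown terms for the average effect (5). Benjamini-Hochberg adjustment ran over every tested gene, with a threshold of 0.05. The SE is the log2 fold change divided by the square root of F. The fits were tested on simulated data. All pairs of libraries exceeded counting noise (lowest chi-square over its degrees of freedom, 15.5). DESeq2 1.42.0 and limma-voom 3.58.1 were alternatives, with other scalings and filters, only the 4 libraries compared, a replicate block, removal of Rn45s and each library left out. Further genes were named by a rule: up to 3 of each list with the smallest p in each comparison, of which the text gives a part. The genes and lists were chosen with earlier results of these data known, so lists were given by counts and medians with no test. Positions are those of GENCODE M21 on GRCm38, the assembly of mm10.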

Additional observations from a re-analysis of the deposited data

How the results depend on the processing

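Alternatives moved the number of genes called more than the ER genes. With DESeq2, 417 genes were called in shAdnp, 101 in shPogz, 2 for the difference between responses, 711 for the average effect and 73 between controls, against 0, 0, 0, 0 and 1 by edgeR. With no low-count filter 6 were called between controls. The replicate number as a block gave 144, 26, 455 and 18 genes in shAdnp, shPogz, the average and the controls. The labels state no pairing, and replicate gaps correlated across genes by -0.08 between shAdnp and its controls, 0.11 between shPogz and its controls, and -0.11 to 0.45 over all 6 pairs of groups. Not every pair passed 0.1, so the libraries were taken to share only a number. With 1 library left out, counts ran from 0 to 8 in shAdnp (highest without shAdnp replicate 1), 0 to 153 in shPogz (without shPogz replicate 1), 0 to 4 for the difference (without shAdnp replicate 1), 0 to 556 for the average (without shPogz replicate 1) and 0 to 6 between controls (without Pogz-set GFP replicate 2). No setting brought any of the 9 ER genes past the adjusted threshold in any comparison.

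The median of the 9 genes ran from -0.27 to 0.20 in shAdnp, 0.12 to 0.44 in shPogz, 0.15 to 0.50 for the difference, 0.05 to 0.23 for the average and -0.19 to -0.05 between controls with a library left out, and it moved past the replicate spread of 0.21 for shAdnp without shAdnp replicate 1. Signs turned where values lay near 0. In shAdnp, Pdia4 was 0.00085 with DESeq2, 0.00086 with RLE, 0.0128 with upper quartile scaling, 0.0047 without Rn45s and 0.0191 with only the 4 libraries, and Xbp1 was -0.0084 with limma-voom. With a library left out, ranges that crossed 0 in shAdnp were -0.39 to 0.11 for Hspa5, -0.22 to 0.13 for Hsp90b1, -0.28 to 0.25 for Pdia4, -0.24 to 0.12 for Pdia6, -0.15 to 0.20 for Calr, -0.27 to 0.27 for Xbp1, -0.023 to 0.27 for Herpud1 and -0.30 to 0.53 for Sdf2l1. Each of these 8 was lowest without shAdnp replicate 1 and highest without replicate 2. In shPogz the range crossed 0 for Dnajb9 (-0.10 without shPogz replicate 2 to 0.23 without replicate 1), which was also below 0 without Pogz-set GFP replicate 2. For the difference it crossed 0 for Xbp1 (-0.066 to 0.46) and Herpud1 (-0.11 to 0.17), for the average for Dnajb9 (-0.19 to 0.013), and between controls for Pdia4 (-0.10 to 0.029), Herpud1 (-0.040 to 0.091) and Dnajb9 (-0.22 to 0.0042). Beyond fewer samples, the cause of these shifts was not tested.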
